A study of Homo sapiens with 10 samples.

Results

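Oxidative phosphorylation genes encode the subunits of the respiratory chain and of ATP synthase. The genes were chosen by symbol (the NDUF, SDH, UQCR, COX4 to COX8 and ATP5 families and the mRNAs of the mitochondrial genome), with at least 1 protein-coding transcript. The rule used no expression value and found 100 of 60168 genes, 87 in the nuclear and 13 in the mitochondrial genome. Of these, 44 belonged to complex I by symbol (37 nuclear and 7 mitochondrial), 4 to complex II, 10 to complex III (9 and 1), 20 to complex IV (17 and 3) and 22 to complex V, the ATP synthase (20 and 2). Another 95 genes with such symbols had no protein-coding transcript and were left out. The symbols also brought in NDUFA4, which purifies with complex IV, the inhibitor ATP5IF1, the readthrough gene ATP5MF-PTCD1 and the retrogene copies UQCRHL and ATP5MGL, whereas CYC1 and NDUFAB1, which are subunits, were missed and are described with the accessory lists.

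MCF10A is a non-tumorigenic human mammary epithelial cell line. MCF10A-YAP5SA cells carry a lentiviral vector for activated YAP (YAP5SA, a serine-to-alanine mutant of the Hippo pathway coactivator that its inhibitory kinases can no longer restrain), MCF10A-TRAM2 cells carry a vector for TRAM2, a part of the translocon of the endoplasmic reticulum, and control cells carry an empty vector. All were transduced, drug-selected populations harvested before confluence, and mRNA was selected by poly(A) before sequencing. By the paper's methods the YAP5SA vector had a BlastR backbone and the TRAM2 vector a Puro backbone. MCF10A-YAP5SA and MCF10A-TRAM2 cells therefore also differed in the resistance gene of their vectors, and the part of this in the results was not tested. There were 2 MCF10A-YAP5SA, 4 MCF10A-TRAM2 and 4 control libraries. Control libraries A and C were not told apart from sampling noise by a chi-square test of their counts, with a statistic of 1.033 for each degree of freedom (1886 genes, p = 0.156), and neither were B and D (1.025, 1835 genes, p = 0.222), whereas the other control pairs gave 1.157 to 1.246. Each pair was therefore counted as 1 sample. With a looser choice of genes the statistic for B and D was 1.040 (3886 genes, chi-square p = 0.0408), so a fit that kept all 10 libraries apart stands among the alternatives. That left 2 MCF10A-YAP5SA, 4 MCF10A-TRAM2 and 2 control samples, and p-values measure the spread between these samples, which may be technical.

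Electrons from NADH and succinate enter the chain at complexes I and II, pass through complexes III and IV to oxygen, and drive the proton pumping that powers ATP synthase. Complexes I, III, IV and V are mosaics of proteins from both genomes, which must be made in step, and complex II is wholly nuclear. The mitochondrial mRNAs are cut from long transcripts of a circular genome. All but MT-ND6 are read from the heavy-strand promoter region, whereas the nuclear genes are spread over the chromosomes and many are known targets of NRF1, ETS-family factors and the ERR and PGC-1 coactivator system.

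Libraries held between 8489854 and 16314438 estimated counts. YAP1 stood at 337 and 342 CPM in MCF10A-YAP5SA cells, 181 to 196 CPM in MCF10A-TRAM2 cells and 187 CPM in both control samples. TRAM2 stood at 242 and 247 CPM in MCF10A-YAP5SA cells, 250 to 611 CPM in MCF10A-TRAM2 cells and 28.4 and 28.9 CPM in control cells. Every sample of both overexpression groups thus carried more TRAM2 mRNA than the controls. The spread within MCF10A-TRAM2 left its test against control at an adjusted p of 0.072 by edgeR (log2 fold change 3.90), whereas DESeq2 gave an adjusted p of 7.5e-26 (3.91). CPM values are each gene's estimated counts relative to the library total after scaling by the trimmed mean of M values. Basal-type mammary markers summed to 3560 to 3580 CPM in MCF10A-YAP5SA, 4080 to 5260 in MCF10A-TRAM2 and 4690 CPM in control samples, and all 7 were detected (KRT17 was called higher in MCF10A-YAP5SA against control, KRT5, CDH3 and TP63 lower, the last to 0.0841 and 0.155 CPM in MCF10A-YAP5SA against 3.11 and 2.48 CPM in control cells). Luminal markers summed to 81.1 to 86.8 CPM in MCF10A-YAP5SA, 43.9 to 46.2 in MCF10A-TRAM2 and 40.7 to 41.0 CPM in controls (GATA3 was called higher in MCF10A-YAP5SA against control, FOXA1, KRT19 and ESR1 lower). Endothelial markers, nearly all PECAM1, summed to 0.155 to 0.336 CPM in MCF10A-YAP5SA, 9.16 to 13.9 in MCF10A-TRAM2 and 7.69 to 7.76 CPM in controls, and leukocyte markers, nearly all CD68, to 49.3 to 55.2 CPM in MCF10A-YAP5SA, 33.8 to 46.2 in MCF10A-TRAM2 and 38.3 to 38.4 CPM in controls. The part of these markers in the results was not tested. Of markers for other cell types, CD3E, VWF and PGR had no counts and fibroblast and striated muscle lists summed to at most 3.82 and 0.505 CPM in any sample. MCF10A-YAP5SA had libraries A and B only, and a number in the deposited names that sets A and B apart from C and D may mark 2 sequencing runs.

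The respiratory chain genes moved down by small steps in MCF10A-YAP5SA cells. Of the 94 genes that passed the low-count filter, 47 fell and 3 rose at an adjusted p under 0.05 at any fold change (edgeR), and 44 did not pass. Among all 15768 genes tested, 24.4% fell and 24.3% rose by the same rule, so beside this background a larger share of the members fell and a smaller share rose. With an absolute log2 fold change over 0.5 required as well (here called), 4 members were lower (UQCRC2, COX7B, COX6B2 and MT-CO2) and 1, NDUFA11, was higher, whereas 14.1% of all genes were called lower and 15.3% higher. Below, rose and fell stand for an adjusted p under 0.05 at any fold change by edgeR. By the same rule DESeq2 gave 40 lower and 2 higher members. Of members named below as having risen or fallen against control, SDHD, UQCRFS1, COX6A1 and COX7A2L did not pass by DESeq2 (adjusted p = 0.15, 0.1, 0.11 and 0.088). The median log2 fold change was −0.15 over the 81 nuclear and −0.32 over the 13 mitochondrial members tested, against −0.01 over all genes. In bulk RNA fewer cells of a kind and less RNA per cell cannot be told apart, and all values are relative to the rest of the mRNA. The count of members that fell dropped to 26 without MCF10A-YAP5SA replicate A and to 28 without control sample 2, and 8 members were called without MCF10A-YAP5SA replicate B. With libraries A and B alone, 5 members were called lower and 1 higher.

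**Figure D1:**
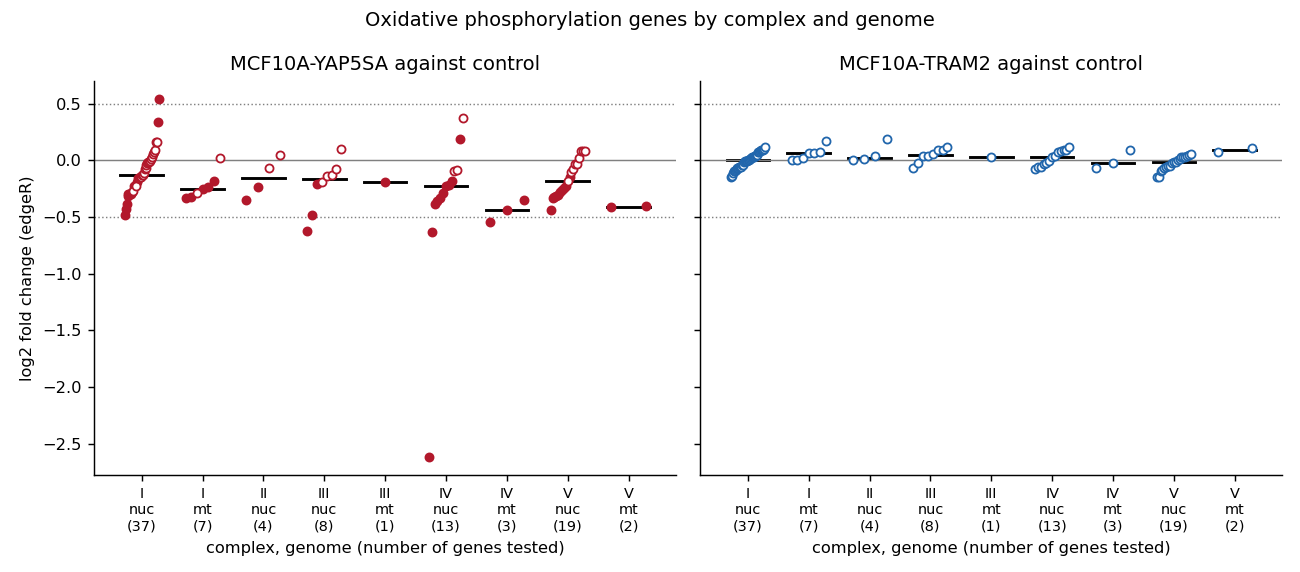
Log2 fold change (edgeR) of each of the 94 tested members, by complex and genome (nuc, nuclear; mt, mitochondrial), for MCF10A-YAP5SA against control (left) and MCF10A-TRAM2 against control (right). Filled points have an adjusted p under 0.05, bars are group medians and dotted lines mark 0.5 and −0.5. In the left panel 47 filled points lie below 0 and 3 above it, with COX6B2 alone near −2.61, and no point is filled in the right panel.

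The mitochondrial mRNAs took a smaller share of all counts in MCF10A-YAP5SA cells. The 13 mRNAs held 3.55% and 3.80% of counts in the MCF10A-YAP5SA samples, 5.13%, 5.14%, 4.98% and 5.48% in the MCF10A-TRAM2 samples and 4.91% and 5.04% in the control samples. Both MCF10A-YAP5SA samples lay below every other sample. The mean share was 0.740 times that of control, a difference of −1.29 percentage points, and the exact two-sided permutation test over samples gave p = 0.333, the smallest that 2 against 2 samples allow (Benjamini-Hochberg adjusted over 3 comparisons, 0.333). Against MCF10A-TRAM2 the difference was −1.51 percentage points (exact permutation p = 0.0667, again the smallest possible, adjusted 0.2). The 87 nuclear members together held 0.665% and 0.665% of counts in MCF10A-YAP5SA, 0.783% to 0.827% in MCF10A-TRAM2 and 0.791% and 0.793% in control samples, which again left the MCF10A-YAP5SA samples apart from the rest.

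Other RNA classes moved beside this share. The mitochondrial rRNAs MT-RNR1 and MT-RNR2 held 2.55% and 2.48% of counts in MCF10A-YAP5SA, 3.08% to 3.73% in MCF10A-TRAM2 and 3.40% and 3.42% in control samples. Nuclear copies of mitochondrial mRNAs, which can take reads from them, held 0.164% and 0.163% in MCF10A-YAP5SA and 0.219% and 0.224% in control samples. Replication-dependent histone genes, whose mRNAs mostly lack a poly(A) tail, held 0.0933% and 0.0910% in MCF10A-YAP5SA against 0.0194% and 0.0201% in control samples. Transcripts not typed protein-coding held 24.3% and 24.1% in MCF10A-YAP5SA and 25.4% to 25.6% in control libraries. The part of these classes in the result was not tested.

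Along the heavy strand, 11 of 12 mRNAs fell and the step was uneven. MT-CO2, the copper-bearing subunit that takes electrons from cytochrome c, fell furthest. It was at 5102 and 5448 CPM in MCF10A-YAP5SA, at 7259, 7733, 7344 and 7878 CPM in MCF10A-TRAM2 and at 7512 and 7830 CPM in control samples. The MCF10A-YAP5SA values lay below all others, with a log2 fold change of −0.54 (edgeR, SE 0.06, adjusted p = 4.1e-06) against control, and without MCF10A-YAP5SA replicate A the value was −0.48, short of the fold threshold. Its neighbours followed. MT-CO3, another core subunit of complex IV, had a log2 fold change of −0.43, MT-ATP8 and MT-ATP6, the membrane subunits of ATP synthase, −0.41 and −0.41, and MT-CO1, the catalytic subunit of complex IV, −0.35 (adjusted p at most 0.0006 for each). The complex I subunits MT-ND2 and MT-ND3 changed by −0.33 and −0.32, MT-ND5 and MT-ND4 by −0.25 and −0.23. The smallest steps among those that fell were at the ends of the array, −0.18 for MT-ND1 (adjusted p = 0.026) and −0.19 for MT-CYB, the cytochrome b of complex III (adjusted p = 0.012).

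Ratios within a sample, into which no scaling enters, are given for the mRNA with the largest step over those with the smallest, chosen after their values were seen, and so as a description. MT-CO2 stood at 2.53 and 2.49 times MT-ND1 in MCF10A-YAP5SA, at 2.83, 3.18, 3.24 and 3.25 times in MCF10A-TRAM2 and at 3.20 and 3.21 times in control samples. Set against MT-CYB, MT-CO2 was at 3.45 and 3.47 times in MCF10A-YAP5SA, 4.12 to 4.52 in MCF10A-TRAM2 and 4.36 and 4.49 times in control samples. In both ratios the MCF10A-YAP5SA samples were below all others. MT-RNR2 stood at 9.18 and 8.33 times MT-ND1 in MCF10A-YAP5SA, 8.80 to 10.8 in MCF10A-TRAM2 and 10.3 and 9.93 times in control samples, where MCF10A-YAP5SA and MCF10A-TRAM2 overlapped. MT-ND4L did not pass (log2 fold change −0.29, SE 0.16, adjusted p = 0.19). It overlaps MT-ND4 on a shared mRNA, as MT-ATP8 overlaps MT-ATP6, so reads of each pair are split by estimate.

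MT-ND6, the sole mRNA of the light strand, did not pass. It was at 297 and 284 CPM in MCF10A-YAP5SA, at 405, 217, 289 and 244 CPM in MCF10A-TRAM2 and at 284 and 290 CPM in control samples, so the groups overlapped. Its log2 fold change against control was 0.02 with an SE of 0.30, so a step like those of the heavy-strand mRNAs was not detectable at this spread. Of the rRNAs at the head of the heavy-strand transcript, MT-RNR2 fell by 0.40 and MT-RNR1 by 0.25 on the log2 scale (adjusted p = 0.00093 and 0.0095). Of all 24 mitochondrial rRNA and tRNA genes 19 could be tested, and besides these rRNAs that fell MT-TF and MT-TS2 rose. MT-TF was at 23.6 and 21.4 CPM in MCF10A-YAP5SA and 14.2 CPM in both control samples (0.66, SE 0.10, adjusted p = 5.1e-05), at levels far under those of the mRNAs.

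**Figure D2:**
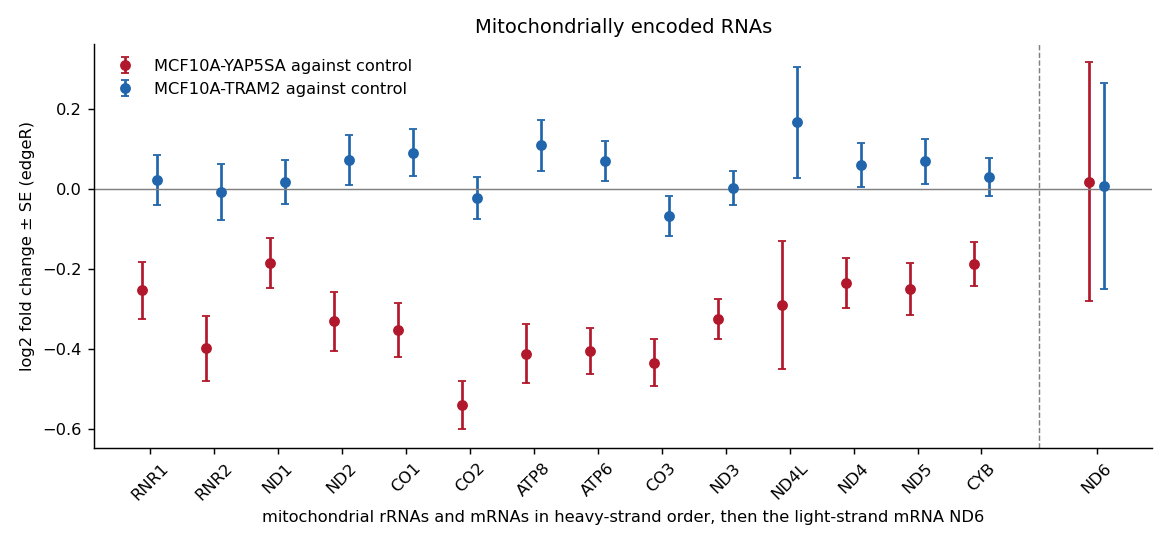
Log2 fold change (edgeR) with its SE for mitochondrial rRNAs and mRNAs in heavy-strand order, with the light-strand mRNA ND6 at the right, for MCF10A-YAP5SA (red) and MCF10A-TRAM2 (blue) against the same control samples. The red points run below 0 from RNR1 to CYB, lowest at CO2 (−0.54), and the blue points lie between −0.07 and 0.17.

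Complex I had members that moved in both directions. Of 37 nuclear members tested, 12 fell (32.4%, against 24.4% of all genes), 2 rose and 23 did not pass, with a median log2 fold change of −0.13. The 7 nuclear core subunits, which carry the flavin, the iron-sulfur clusters and the quinone site, all had negative values (median −0.29), and 4 of them fell (2 passed by DESeq2). The 30 supernumerary subunits had a median of −0.07, and 8 fell (26.7%, near the 24.4% of all genes) and 2 rose (6.67%, against 24.3%). Their range ran from −0.48 for NDUFB1 (adjusted p = 0.00019) to 0.54 for NDUFA11. NDUFA11, a membrane-arm subunit at the contact with complex III in supercomplexes, was at 37.2 and 37.9 CPM in MCF10A-YAP5SA, 27.0, 29.3, 25.8 and 26.3 CPM in MCF10A-TRAM2 and 26.0 and 25.5 CPM in control samples. Every MCF10A-YAP5SA value was above every other (fold 1.46, SE 0.08 on the log2 scale, adjusted p = 5.6e-05). A gene model on the same strand and another on the opposite strand overlap NDUFA11, and the files do not say whether strand was used. NDUFA8, a subunit of the intermembrane-space side, also rose, to 37.8 and 40.1 CPM in MCF10A-YAP5SA against 31.1 and 30.4 CPM in control samples (log2 fold change 0.34, adjusted p = 0.0017). NDUFB1 and NDUFA8 were named after their values were seen.

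Complex II, which links the citric acid cycle to the chain, had 2 members that fell and 2 that did not pass. The iron-sulfur subunit SDHB fell, at 67.4 and 67.1 CPM in MCF10A-YAP5SA against 81.8 and 89.2 CPM in control samples (log2 fold change −0.35, SE 0.07, adjusted p = 0.00094), and so did the membrane anchor SDHD (−0.24, adjusted p = 0.046). The flavoprotein SDHA had 168 and 167 CPM in MCF10A-YAP5SA and 174 and 176 CPM in control samples (−0.06, SE 0.05, adjusted p = 0.3), and the other anchor, SDHC, had a log2 fold change of 0.05 (SE 0.07). Differences between subunits were not tested.

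In complex III the largest changes were in the large core proteins. UQCRC2 was at 91.7 and 96.2 CPM in MCF10A-YAP5SA, at 151, 159, 161 and 159 CPM in MCF10A-TRAM2 and at 148 and 142 CPM in control samples, with no overlap between MCF10A-YAP5SA and the rest. Against control its log2 fold change was −0.62 (SE 0.05, adjusted p = 3.1e-07). Its partner core protein UQCRC1 was at 89.9 and 93.6 CPM in MCF10A-YAP5SA and at 125 and 131 CPM in control samples, a log2 fold change of −0.48 (adjusted p = 1.1e-05) that fell short of the fold threshold. UQCRFS1, the Rieske iron-sulfur protein, fell by 0.20 on the log2 scale (adjusted p = 0.019). The 5 small subunits tested did not pass, from −0.19 for UQCRH (SE 0.14) to 0.10 for UQCRB (SE 0.05), and UQCRHL had too few counts. UQCRC1, UQCRFS1 and the small subunits were named after their values were seen.

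Among nuclear members, complex IV had the largest share that fell, 9 of the 13 tested, and 1 rose. All 3 mitochondrial members fell. Among the 10 isoforms of ordinary tissue 8 fell, with COX7A2 (−0.08) and COX8A (−0.10) not passing. COX7B, a small subunit at the membrane, was called. It was at 72.7 and 71.7 CPM in MCF10A-YAP5SA, at 115, 110, 115 and 101 CPM in MCF10A-TRAM2 and at 114 and 111 CPM in control samples, and the MCF10A-YAP5SA samples lay well below the others (log2 fold change −0.64, SE 0.07, adjusted p = 1.6e-06).

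COX6B2, the isoform of COX6B1 known from testis, had the largest change of any member at a low level. It had 9 and 14 counts (0.757 and 1.08 CPM) in MCF10A-YAP5SA, 75 to 104 counts (5.18 to 7.18 CPM) in MCF10A-TRAM2 and 136 and 96 counts (6.22 and 5.17 CPM) in control samples. The MCF10A-YAP5SA samples lay below all others, the other groups overlapped, and the fitted fold of MCF10A-YAP5SA to control was 0.163 (log2 −2.61, SE 0.28, adjusted p = 2.4e-06). The ubiquitous COX6B1 was at 139 and 136 CPM in MCF10A-YAP5SA and 156 and 162 CPM in control samples (−0.21, adjusted p = 0.0087). An unnamed gene model overlaps COX6B2 on the same strand, and the share of its TPM on a 162-base transcript ran from 0% to 94.3% within MCF10A-YAP5SA and from 0% to 84.6% within the controls.

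In the other isoform families the general form was the abundant one. Liver-type COX6A1 fell by 0.22 on the log2 scale (adjusted p = 0.039), and muscle-type COX6A2 had no counts in any sample. COX4I1, the general form of the regulatory subunit, fell by 0.36 (adjusted p = 2.9e-05), and the lung-type COX4I2 had no counts, nor had COX7B2 and COX8C. COX7A1, the heart and muscle form, was detected at 4.12 and 5.73 CPM in MCF10A-YAP5SA, 4.03 ± 0.36 CPM in MCF10A-TRAM2 (SD, n = 4) and 3.84 and 3.77 CPM in control samples (log2 fold change 0.37, SE 0.21, adjusted p = 0.16). COX7A2L, a relative of COX7A2 that serves supercomplex assembly, was the single member of the complex that rose, with 59.3 and 61.0 CPM in MCF10A-YAP5SA against 54.2 and 51.6 CPM in control samples (0.19, SE 0.06, adjusted p = 0.026). NDUFA4 did not pass (−0.16, adjusted p = 0.11), and its relative NDUFA4L2, outside the symbol rule, had too few counts.

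**Figure D3:**
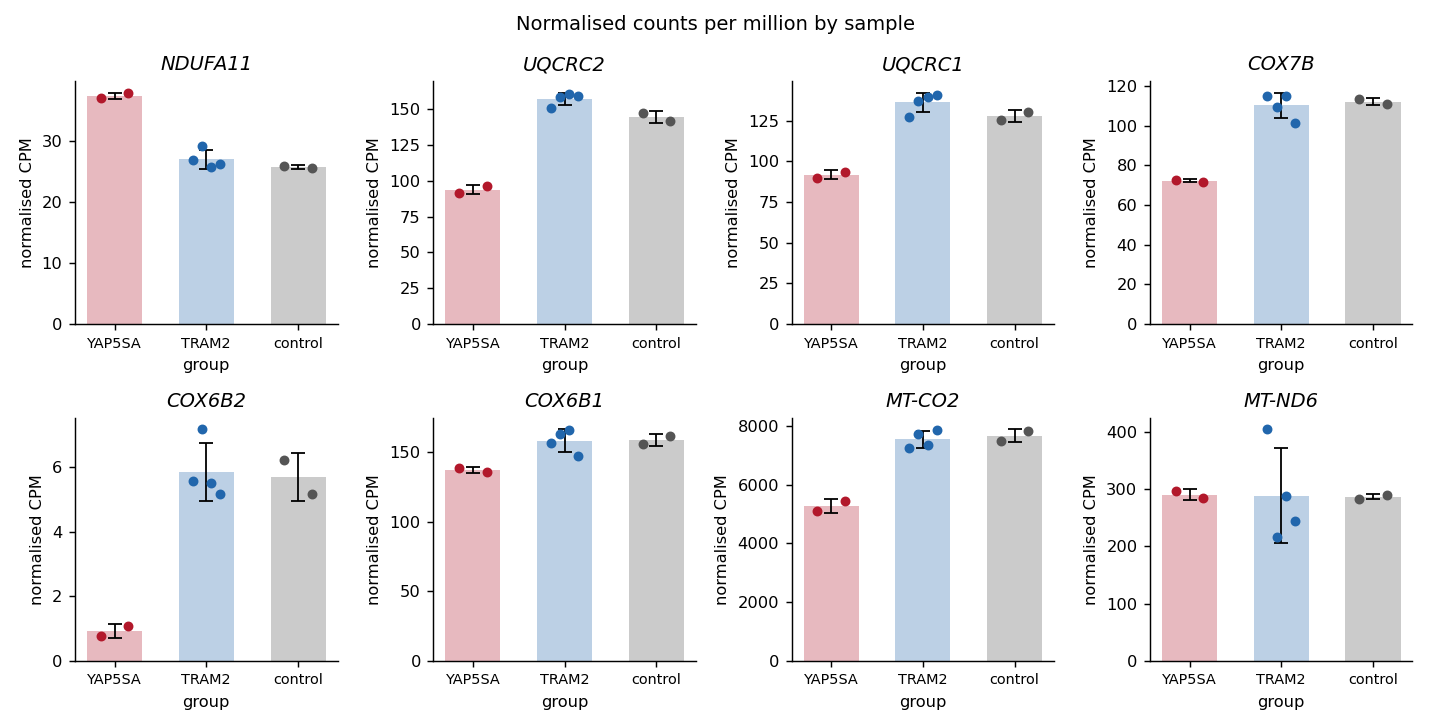
Normalised counts (CPM) in each sample for members called in MCF10A-YAP5SA against control or against MCF10A-TRAM2, with COX6B1 and MT-ND6 for comparison. MT-ATP8, called against MCF10A-TRAM2 only, is not drawn. Points are samples, bars are means and error bars are the SD (n = 2 MCF10A-YAP5SA, 4 MCF10A-TRAM2 and 2 control samples), and the MCF10A-YAP5SA points stand apart from both other groups except for MT-ND6 (297 and 284 against 284 and 290 CPM in control samples).

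In the ATP synthase 10 of 19 nuclear members tested fell and none rose (edgeR, 0 higher at an unadjusted p under 0.05 and 0 by DESeq2). In the catalytic F1 head, the beta subunit ATP5F1B was at 377 and 361 CPM in MCF10A-YAP5SA and 450 and 465 CPM in control samples (log2 fold change −0.31, SE 0.05, adjusted p = 0.00014). The alpha subunit ATP5F1A was at 267 and 275 CPM in MCF10A-YAP5SA and 297 and 304 CPM in control samples (−0.15, adjusted p = 0.02). In the same head, the gamma subunit ATP5F1C (0.02, SE 0.05) and the epsilon subunit ATP5F1E (0.08, SE 0.06) did not pass. Of the peripheral stalk 3 of 4 members fell, with ATP5PD (0.08, SE 0.07) the exception. The c ring is built from 1 mature protein encoded by 3 genes, of which ATP5MC1 (−0.33, adjusted p = 0.0042) and ATP5MC3 (−0.25, adjusted p = 0.003) fell and ATP5MC2 (−0.08, SE 0.08) did not pass. Of the other membrane subunits 1 of 5 fell, ATP5ME. The inhibitor ATP5IF1 had a log2 fold change of −0.10 (SE 0.06, adjusted p = 0.15).

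Stretches before the start sites are shown for the 4 nuclear members called against control and for UQCRC1, the partner of UQCRC2. The 250 bases before the start come from RefSeq on GRCh38.p14, where NDUFA11 is at chr19:5903791-5904040 (minus strand), UQCRC1 at chr3:48609647-48609896 (minus strand), UQCRC2 at chr16:21953111-21953360 (plus strand), COX7B at chrX:77899218-77899467 (plus strand) and COX6B2 at chr19:55354720-55354969 (minus strand). They run 5′ to 3′ towards the gene, and capitals mark matches to the motifs searched on both strands, which were GCGCA and GCGC with any 1 base between them (NRF1), CCGGAAG (ETS family), AAGATGG followed directly by CGGC (YY1) and GGAATG (TEAD, the DNA-binding partners of YAP).
NDUFA11: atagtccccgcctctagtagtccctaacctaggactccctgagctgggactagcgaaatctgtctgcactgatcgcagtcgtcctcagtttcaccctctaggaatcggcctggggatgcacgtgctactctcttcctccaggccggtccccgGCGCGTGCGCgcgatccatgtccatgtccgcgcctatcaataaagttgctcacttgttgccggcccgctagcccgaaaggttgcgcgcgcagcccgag
UQCRC1: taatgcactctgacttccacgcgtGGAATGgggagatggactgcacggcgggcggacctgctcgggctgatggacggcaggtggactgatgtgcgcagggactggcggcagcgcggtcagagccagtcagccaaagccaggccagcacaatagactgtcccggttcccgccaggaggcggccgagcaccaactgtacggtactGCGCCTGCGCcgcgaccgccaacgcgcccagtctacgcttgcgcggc
UQCRC2: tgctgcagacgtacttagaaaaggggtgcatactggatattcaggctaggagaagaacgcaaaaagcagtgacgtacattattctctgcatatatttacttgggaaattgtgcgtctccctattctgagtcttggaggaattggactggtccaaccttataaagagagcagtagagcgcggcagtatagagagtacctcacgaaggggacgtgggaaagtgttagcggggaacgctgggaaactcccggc
COX7B: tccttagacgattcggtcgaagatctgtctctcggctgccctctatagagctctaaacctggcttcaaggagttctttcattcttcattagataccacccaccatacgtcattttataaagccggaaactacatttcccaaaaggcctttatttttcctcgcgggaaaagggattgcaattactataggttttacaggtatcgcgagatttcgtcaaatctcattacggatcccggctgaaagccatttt
COX6B2: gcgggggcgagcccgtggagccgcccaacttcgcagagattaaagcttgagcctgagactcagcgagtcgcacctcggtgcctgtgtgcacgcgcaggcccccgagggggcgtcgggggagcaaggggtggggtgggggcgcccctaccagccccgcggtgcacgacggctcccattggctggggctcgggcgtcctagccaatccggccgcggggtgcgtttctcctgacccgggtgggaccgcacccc

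The window of NDUFA11 held an NRF1 match and that of UQCRC1 an NRF1 and a TEAD match. The windows of UQCRC2, COX7B and COX6B2 held no match, which says only that these letters are not in the window. The ETS and TEAD letters share GGAA but cannot match at the same place. Of 66 tested nuclear members with a window in the table, 14 (21.2%) held the NRF1 letters, 17 (25.8%) the ETS letters, 6 (9.09%) the TEAD letters and 0 the YY1 letters, against 5.07%, 8.52%, 11.9% and 0.248% of 35116 windows of all genes. Those windows were not limited to the 15768 genes tested here, so the shares come from unlike sets. The 14 members with NRF1 letters had a median log2 fold change of −0.14 in MCF10A-YAP5SA against control (7 fell and 1 rose), and the 52 without had −0.15 (22 fell and 2 rose). For the ETS letters the medians were −0.19 (17 members with) and −0.13 (49 without). For the TEAD letters they were −0.14 (6 members with, of which 3 fell and 0 rose) and −0.17 (60 without, of which 26 fell and 3 rose). These differences were not tested.

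MCF10A-TRAM2 cells differed little from control cells in these genes. Of the 94 members tested none passed at an adjusted p under 0.05 by edgeR, and none by DESeq2. By edgeR 4 had an unadjusted p under 0.05, against 1994 of all 15768 genes. By adjusted p the background was also low. Of all genes 0.0317% were called higher and 0.0254% lower, and 0.0888% rose and 0.0571% fell at any fold change. The median log2 fold change was 0.01 over nuclear and 0.06 over mitochondrial members, and single members ran from −0.15 for ATP5MF-PTCD1 to 0.19 for SDHD. The 4 smallest p-values belonged to UQCRC2, SDHD, NDUFS6 and COX7A2L. UQCRC2 was at 151, 159, 161 and 159 CPM in MCF10A-TRAM2 and at 148 and 142 CPM in control samples (log2 fold change 0.12, SE 0.05, adjusted p = 0.29), above both controls but by less than the test could call. SDHD was at 35.1, 37.8, 36.0 and 41.8 CPM in MCF10A-TRAM2 and 31.8 and 34.5 CPM in control samples (0.19, adjusted p = 0.33). COX7A2L was at 56.5, 60.3, 56.2 and 56.6 CPM in MCF10A-TRAM2 and 54.2 and 51.6 CPM in control samples (0.12, adjusted p = 0.39), and NDUFS6, an accessory complex I subunit, was at 51.3, 51.0, 54.7 and 46.4 CPM in MCF10A-TRAM2 and 57.3 and 55.2 CPM in control samples (−0.15, adjusted p = 0.37). The mitochondrial share of counts in MCF10A-TRAM2 exceeded that of control by 0.212 percentage points (exact two-sided permutation p = 0.333, adjusted 0.333), and by 0.113 points without MCF10A-TRAM2 replicate D.

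Set against MCF10A-TRAM2, MCF10A-YAP5SA cells again had lower levels of many members. The comparison shares its MCF10A-YAP5SA samples with the one against control. Of 94 members 52 fell and 2 rose, against 24.9% and 26.3% of all genes, and 6 were called lower and none higher (14.6% and 14.9% of all genes). The 6 were UQCRC2 (log2 fold change −0.74, SE 0.05), UQCRC1 (−0.57), COX7B (−0.61), COX6B2 (−2.65, SE 0.26), MT-CO2 (−0.52) and MT-ATP8 (−0.52). The last pair missed the fold threshold without MCF10A-YAP5SA replicate A (−0.46 and −0.46) and without MCF10A-TRAM2 replicate D (−0.496 and −0.47). None was called higher by DESeq2, and 3 were higher at an unadjusted p under 0.05 by edgeR. NDUFA11 had 0.47 (adjusted p = 5.6e-05) and so missed the fold threshold. The median was −0.16 over nuclear and −0.37 over mitochondrial members, and all 12 heavy-strand mRNAs fell, MT-ND4L included (−0.46, adjusted p = 0.034).

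Levels differed far more between genes than between groups. Per kilobase of transcript, the mitochondrial mRNAs ran in control samples from 547 CPM for MT-ND6 and 738 for MT-ND3 to 11220 CPM for MT-CO2 (SD 328, n = 2), with MT-ATP8 (9694) and MT-CO1 (7809) next. In MCF10A-YAP5SA the order at the top was the same in kind, 7712 CPM per kilobase for MT-CO2 (SD 357, n = 2), 7288 for MT-ATP8 and 6122 for MT-CO1, and the gap between the first pair of these was smaller than the sum of their SDs. TPM could not be used for the short ones. MT-ATP8, with 207 bases, was given an effective length of 10.8 bases and so 82820 TPM in control samples. Among nuclear members ATP5MF had the highest TPM in every group, 1972 in MCF10A-YAP5SA, 1997 in MCF10A-TRAM2 and 2060 TPM in control samples. By counts it was not the highest. In control samples it had 278 CPM, against 457 CPM and 524 TPM for ATP5F1B. Its TPM rank thus rests on the lengths assigned to its transcripts. The median TPM over all nuclear members, untested ones included, in MCF10A-YAP5SA and in control samples was 59.1 and 71.2 for complex I, 63.6 and 73.2 for complex II, 66.5 and 92.6 for complex III, 73.2 and 89.7 for complex IV and 122 and 143 for complex V.

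Transcript shares were less certain than gene totals. For ATP5F1B no library had a count on its 1759-base transcript, and its reads sat on shorter forms. For 14 of the tested members under 50% of counts were on transcripts typed protein-coding. UQCRC2 had mean TPM shares of 41.2% and 17.1% on transcripts typed as retained introns and 20.3% on a protein-coding one. NDUFV3, which has a long and a short protein isoform, had 17.9% and 18.2% of its TPM on its protein-coding transcript in MCF10A-YAP5SA, 17.4% to 19.9% in MCF10A-TRAM2 and 17.0% and 19.3% in control samples. For ATP5F1C, known to splice differently in muscle, the leading transcript, typed as non-coding, held 41.1% and 45.9% in MCF10A-YAP5SA and 39.9% and 49.0% in control samples, so neither gene showed a shift larger than its spread.

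Lists of genes that build the complexes, express the mitochondrial genome or feed the chain were read against the same background, in which 24.4% of all genes fell and 14.1% were called lower. Of the subunits and carriers that the symbol rule missed, all 3 tested fell in MCF10A-YAP5SA against control. They were CYC1, the cytochrome c1 of complex III (log2 fold change −0.44), NDUFAB1, the acyl carrier protein of complex I (−0.42), and CYCS, cytochrome c (−0.22). Of 15 complex I assembly genes 8 fell and none rose (edgeR, 0 higher at an unadjusted p under 0.05 and 0 by DESeq2), and 4 were called lower. ECSIT was at 8.07 and 7.82 CPM in MCF10A-YAP5SA and 17.3 and 17.4 CPM in control samples (−1.13, SE 0.14, adjusted p = 9.6e-06), and TMEM186 (−0.94), NDUFAF4 (−0.72) and NDUFAF5 (−0.59) followed. Of 33 assembly genes for the other complexes 14 fell and 1 rose, and the share called lower, 4 of 33, was no higher than that of all genes. The copper-handling genes COX17 (−0.61), COX19 (−0.71) and SCO2 (−0.62) and the complex IV factor PET117 (−0.70) were called lower, and SDHAF2, which inserts the flavin into SDHA, was called higher (0.58, SE 0.22, adjusted p = 0.041).

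Of 25 genes for transcription of mitochondrial DNA and handling of its RNA, 18 fell and none rose (edgeR, 0 higher at an unadjusted p under 0.05, and 16 passed by DESeq2), with a median of −0.36, and 7 were called lower. FASTKD1, a mitochondrial RNA-binding protein, was at 14.9 and 14.6 CPM in MCF10A-YAP5SA and 34.7 and 34.0 CPM in control samples (−1.22, SE 0.09, adjusted p = 6.2e-08). TRMT10C, a part of the RNase P that cuts tRNAs from the long transcripts (−0.68), TFB2M, an initiation factor (−0.61), and FASTKD2 (−0.50) were among them. Of 78 mitochondrial ribosomal protein genes 42 fell and 3 rose, and 9 were called lower, again a share no higher than that of all genes, and 1 was called higher. MRPS34 (−0.58), MRPL44 (−0.68) and MRPS2 (−0.53) were among the lower ones, and MRPL33 was the higher one, at 84.6 and 87.2 CPM in MCF10A-YAP5SA against 42.4 and 46.2 CPM in control samples (0.96, SE 0.07, adjusted p = 3e-08). Of 18 citric acid cycle genes 14 fell and none rose (edgeR, 0 higher at an unadjusted p under 0.05, and 13 passed by DESeq2), and none was called.

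Of 13 tested nuclear regulators of these genes 10 fell and 2 rose. The estrogen-related receptor gene ESRRA was at 14.4 CPM in both MCF10A-YAP5SA samples and 35.6 and 34.5 CPM in control samples (−1.28, SE 0.08, adjusted p = 1.1e-08). PPARGC1B, the coactivator PGC-1 beta, was at 19.0 and 20.5 CPM in MCF10A-YAP5SA and 70.3 CPM in both control samples (−1.83, SE 0.17, adjusted p = 5.4e-05), and PPARGC1A had too few counts to test. GABPA, an ETS-family factor (−0.52), and MYC (−0.59) were called lower. NRF1 itself had 0.06 (adjusted p = 0.72), and GABPB1, the partner of GABPA, and HIF1A rose (0.35 and 0.42), the last 3 named after their values were seen. In MCF10A-TRAM2 against control no gene of any of these lists passed by edgeR, and DESeq2 passed 1 of the regulators and none in the other lists. In the mitochondrial ribosome list 18 of 78 genes had an unadjusted p under 0.05 (edgeR), against 1994 of all 15768 genes. All 18 had negative values, and 68 of the 78 log2 fold changes were below 0 (median −0.065). Set against MCF10A-TRAM2, MCF10A-YAP5SA had 2 of the 25 genes for mitochondrial DNA transcription and RNA handling called lower (8.0%, against 14.6% of all genes). Of these 25 genes 18 fell and 1 rose.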

How the data were processed

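mRNA libraries of MCF10A cells with a YAP5SA, a TRAM2 or an empty vector were analysed (2, 4 and 4 libraries). Per the study's methods and the submitters' processing notes, the authors trimmed adapters with cutadapt and quantified transcripts with Salmon. The study's methods name a strand-specific kit. The tools' versions, the index, the build and whether quantification used strand are not stated in the sources used here. The authors deposited for each transcript an estimated count (expected count), a TPM value and lengths per library.

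Deposited estimated counts were summed per gene and rounded to whole numbers. Control libraries A and C, and B and D, were summed after the chi-square comparison (genes of at least 50 mean counts, within 0.001 of whole numbers), so that n was 2 MCF10A-YAP5SA, 4 MCF10A-TRAM2 and 2 control samples. Genes were filtered with filterByExpr (15768 kept), scaled by TMM and tested over all 8 samples in 1 fit with edgeR 4.0.16 (quasi-likelihood, robust) in R 4.3.3, with Benjamini-Hochberg adjustment over all genes tested. Calls needed a log2 fold change beyond 0.5 in size, with its adjusted p below 0.05. SE is the log2 fold change over the root of its F statistic. Shares were compared by exact permutation over samples. Scripts were tested on simulated data.

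Alternatives were DESeq2 1.42.0, other scalings and filters, the 10 libraries apart, libraries A and B alone, a replicate block, protein-coding transcripts alone, and leaving out each sample. A fit of libraries C and D alone was added after the data were seen. The members, gene lists and tests were chosen with earlier results of these data known. Named were all mitochondrial mRNAs, up to 4 called nuclear members per complex and direction in MCF10A-YAP5SA against control (otherwise the 2 with the highest CPM), isoform families, the 4 smallest p-values in MCF10A-TRAM2 against control and up to 4 called genes per list. Any other gene named was chosen after its values were seen. Overlapping gene models were read from GENCODE on GRCh37, and start-site sequences from RefSeq on GRCh38.p14 (69 of 87 nuclear members matched). Some results are not reported here.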

Additional observations from a re-analysis of the deposited data

Results flagged for a closer look

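The gap between the highest or lowest sample and its nearest neighbour, over the range of the group, was compared with Dixon's 95% critical value for 4 samples in MCF10A-TRAM2, the only group of at least 4 samples. Of 41 quantities checked 6 exceeded it, where chance passes about 1 in 20. MT-ND5 (3637 CPM) and MT-ATP6 (5087 CPM) were high in replicate D, which also held the lowest share of counts on pseudogenes with member-like symbols (0.0131%). SDHB was low in replicate A (78.0 CPM). Replicate B was high in COX7A2L (60.3 CPM) and in the share of histone genes (0.0324%).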

How the results depend on the processing

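Under the other alternatives run, the count of members called in MCF10A-YAP5SA against control stayed between 5 and 7, and leaving out 1 sample gave 4 to 8. At any fold change it was 50, and the members that fell numbered 35 to 62 over the alternatives and 26 to 53 without 1 sample. Against MCF10A-TRAM2 the called count ran from 5 to 9, and from 4 to 8 without 1 sample, and at any fold change it was 54. In MCF10A-TRAM2 against control it was 0 throughout (0 to 0 without 1 sample), libraries C and D alone included. For MCF10A-YAP5SA against control the nuclear median was −0.18 with upper-quartile scaling, −0.20 with no low-count filter and −0.19 with protein-coding transcripts alone, and without 1 sample it ran from −0.15 to −0.14, the mitochondrial median from −0.37 to −0.25. Against MCF10A-TRAM2 the nuclear median was −0.22 with upper-quartile scaling and −0.19 without mitochondrial genes in the scaling, and without 1 sample −0.19 to −0.13 (mitochondrial −0.39 to −0.33). In MCF10A-TRAM2 against control the medians without 1 sample were −0.02 to 0.02 and 0.03 to 0.08. The cause of these shifts was not tested. The difference in mitochondrial share kept its sign in each alternative. As a share of TPM it was −3.07 percentage points for MCF10A-YAP5SA against control, −4.01 against MCF10A-TRAM2 and 0.943 for MCF10A-TRAM2 against control. The TPM share rests largely on MT-ATP8, with its effective length of 10.8 bases. MT-ATP8 had 61140 TPM in MCF10A-YAP5SA, 90290 in MCF10A-TRAM2 and 82820 TPM in control samples. As a share of counts, the difference without 1 sample was −1.42 to −1.17, −1.63 to −1.38 and 0.113 to 0.278 points for these comparisons. Of the members called against control, NDUFA11 (0.495 with no filter) and MT-CO2 (−0.48 without MCF10A-YAP5SA replicate A) dropped under the fold threshold. Against MCF10A-TRAM2, MT-ATP8 kept its call in 7 of the 9 alternatives other than leaving out 1 sample (log2 fold change −0.58 to −0.46). Same-letter libraries did not deviate together (correlations −0.026 to 0.035). A replicate block by letter over the 10 libraries called 5 members against control and 5 against MCF10A-TRAM2, and 0 in MCF10A-TRAM2 against control, with MT-ATP8 (−0.49 against MCF10A-TRAM2) the member no longer called. With 2 samples in each of 2 groups, small steps in low genes were not detectable.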
